A study of Mus musculus with 61 samples.

Results

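The PGC-1 coactivators and the transcription factors they work with were followed through 61 RNA-seq libraries of mouse muscle. The genes were taken by symbol from the deposited gene count table: Ppargc1a, Ppargc1b, Pprc1, Perm1, Esrra, Esrrg, Ppara, Ppard, Nrf1 and Tfam, which are 10 of its 55011 rows. All 10 were in the table, none had 0 counts in any library, and all 10 passed the low-count filter in each of the 7 model fits. The study asked how regulatory T cells (Tregs) and interferon-gamma (IFN-gamma) shape the response of muscle to exercise.

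The libraries fall into 22 groups. Wild-type C57BL/6J mice gave quadriceps and tibialis anterior muscle, with 3 animals at rest (sedentary) and 3 at each of days 1, 2 and 7 of recovery from a single bout of exercise. In the acute experiment quadriceps came from Foxp3DTR- and Foxp3DTR+ mice, written DTR- and DTR+ here. DTR+ mice carry the Foxp3-IRES-GFP.hDTR allele, which places the human diphtheria toxin receptor under the Foxp3 gene of Tregs, so that diphtheria toxin (DT) kills Foxp3-expressing cells. Mice of both genotypes received DT. Sedentary mice gave 3 DTR- and 2 DTR+ libraries, day 1 gave 3 per genotype, and day 7 gave 2 per genotype. The training experiment has 3 quadriceps libraries each of sedentary and trained (2 weeks of exercise) DTR- and DTR+ mice, all with DT. The antibody experiment has 3 trained DTR+ mice given DT and control IgG and 3 given DT and a neutralizing antibody to IFN-gamma. Aged C57BL/6JN mice of 24 months, sedentary, have 2 libraries with IgG and 2 with the same antibody, and the labels do not name their muscle. Ages of the other mice are not stated in the labels.

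PGC-1 alpha, the product of Ppargc1a, does not bind DNA itself. It docks on transcription factors such as the estrogen-related receptors, the PPARs and NRF1 and recruits enzymes that open chromatin, which raises the transcription of genes for mitochondria and for fat oxidation. In skeletal muscle it is known for a short burst of its mRNA in the hours after exercise and for its part in oxidative fibres and mitochondrial biogenesis. TFAM, made from a nuclear gene downstream of NRF1, packages the mitochondrial genome and helps start its transcription.

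Levels are given as CPM, a count scaled to its library's total. Compared per kilobase of exon, the median over the 22 group means was 61.1 CPM per kb for Perm1, a muscle regulator induced by PGC-1 and the estrogen-related receptors. It was 7.69 for Tfam, 7.24 for Ppargc1a, 4.71 for Esrra (estrogen-related receptor alpha), 3.35 for Ppargc1b (PGC-1 beta) and 2.28 for Esrrg (estrogen-related receptor gamma). The lowest were Pprc1, the growth-regulated member of the PGC-1 family, at 2.21 CPM per kb, Nrf1 at 1.77 with Ppara between them, and Ppard at 0.587. Perm1 thus stood above the other members on the per-kilobase scale. Ppard and Ppara went down to 4 counts in a library, so their values are the least precise. Part of the exons of Pprc1 overlap Ldb1 on the other strand (2.82% of its exon bases), and parts of Esrra overlap Mir6990 (2.07%) and Trmt112 (1.66%). Whether counting used strand is not given in the sources used here, so reads from these stretches cannot be assigned.

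The gene models of 9 members lie on GRCm38 at chr5:51454250-51567726 for Ppargc1a, chr19:46044886-46072915 for Pprc1, chr4:156215868-156221307 for Perm1 and chr19:6910977-6921813 for Esrra. The others are Esrrg at chr1:187608791-188214885, Ppara at chr15:85734983-85802819, Ppard at chr17:28232700-28301474, Nrf1 at chr6:30047988-30153458 and Tfam at chr10:71225464-71238280.

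Promoter windows, from 250 bases before to 50 after a RefSeq start (GRCm38.p6), were matched for 9 of the 10 genes. The upstream stretches of 3 genes are shown because these genes are described at length below and because 2 of them carry letters bound by members of the group. Capitals in Ppargc1a (chr5:51567727-51567975, minus strand) mark ACGTCA, a half-site of the cAMP response element on the opposite strand, with its first base 50 bases before the RefSeq start. Capitals in Perm1 (chr4:156215677-156215867, plus strand) mark TGACCTT, the reverse of AAGGTCA, the extended half-site bound by the estrogen-related receptors. Capitals in Esrra (chr19:6921814-6922058, minus strand) mark GCATGCGC, the core of an NRF1 site, with its first base 34 bases before the RefSeq start.
Ppargc1a: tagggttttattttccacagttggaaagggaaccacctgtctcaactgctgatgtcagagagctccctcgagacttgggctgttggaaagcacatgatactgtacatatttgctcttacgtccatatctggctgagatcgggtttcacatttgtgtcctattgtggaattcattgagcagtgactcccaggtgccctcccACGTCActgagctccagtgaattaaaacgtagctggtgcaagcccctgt
Perm1: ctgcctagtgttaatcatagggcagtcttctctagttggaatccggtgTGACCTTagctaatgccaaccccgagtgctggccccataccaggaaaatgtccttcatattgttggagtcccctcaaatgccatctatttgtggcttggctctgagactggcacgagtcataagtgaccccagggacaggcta
Esrra: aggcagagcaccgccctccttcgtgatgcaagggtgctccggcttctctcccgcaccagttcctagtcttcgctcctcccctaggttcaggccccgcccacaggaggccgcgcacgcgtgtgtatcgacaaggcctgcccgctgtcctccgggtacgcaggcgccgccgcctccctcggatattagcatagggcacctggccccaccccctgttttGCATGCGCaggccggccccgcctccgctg
Only short sites are shown where the window lies in or across the start of the GENCODE gene model. Tfam (chr10:71238076-71238100, minus strand) carries ACCGGAAGT, the site of the ETS factor GABP, and Ppara (chr15:85735737-85735762, plus strand) carries a full NRF1 site. Perm1 also holds a core of the muscle factor MEF2, CTATTTTT (chr4:156215857-156215880, plus strand).
Tfam: tgccgcggACCGGAAGTccgggctt
Ppara: gctcggtgGCGCATGCGCgcggacta
Perm1 MEF2: gggacaggCTATTTTTggaagtag
Both strands were searched. Of 32851 promoter windows of the same length, 7.51% hold TGACGT or its reverse, 4.72% AAGGTCA, 2.71% GCATGCGC, 1.1% ACCGGAAGT, 0.971% the full NRF1 site and 1.49% CTATTTTT. The core is contained in the full NRF1 site. These are matches of letters and not measured binding.

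Some libraries stood apart before any group was compared. Total counts ran from 3359683 to 14445336. In the acute experiment, transcripts of the mitochondrial genome took 21.4 to 23.5% of counts in sedentary DTR+ and 20.01 to 21.8% in day 7 DTR+ libraries, against 7.89 to 11.996% and 8.70 to 8.92% in their DTR- counterparts and 5.44 to 6.56% at day 1. The same DTR+ libraries had fewer genes detected, 14701 to 15306, against 21211 to 26596 at day 1. These leaned to short transcripts, with a slope of -0.22 to -0.19 log2 units per doubling of length against 0.14 to 0.23 at day 1. Sedentary DTR- libraries also differed from day 1, with 16508 to 16799 genes and slopes of -0.13 to -0.05. Day 7 DTR- libraries had 16843 to 18494 genes and slopes of -0.03 to 0.05. In the training experiment the sedentary DTR+ libraries ranged in slope from -0.31 (replicate 2) to 0.23 (replicate 3), and the 4 aged libraries from -0.52 to 0.77. Each comparison was therefore refitted after removing a smooth trend of counts on transcript length and GC content from every library. All 10 fast-fibre marker genes were detected in every library. No count of Foxp3 was found in 41 of 61 libraries, and none of Ifng in 53. Neither exceeded 9 counts, so the loss of Tregs could not be checked from Foxp3.

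**Figure D1:**
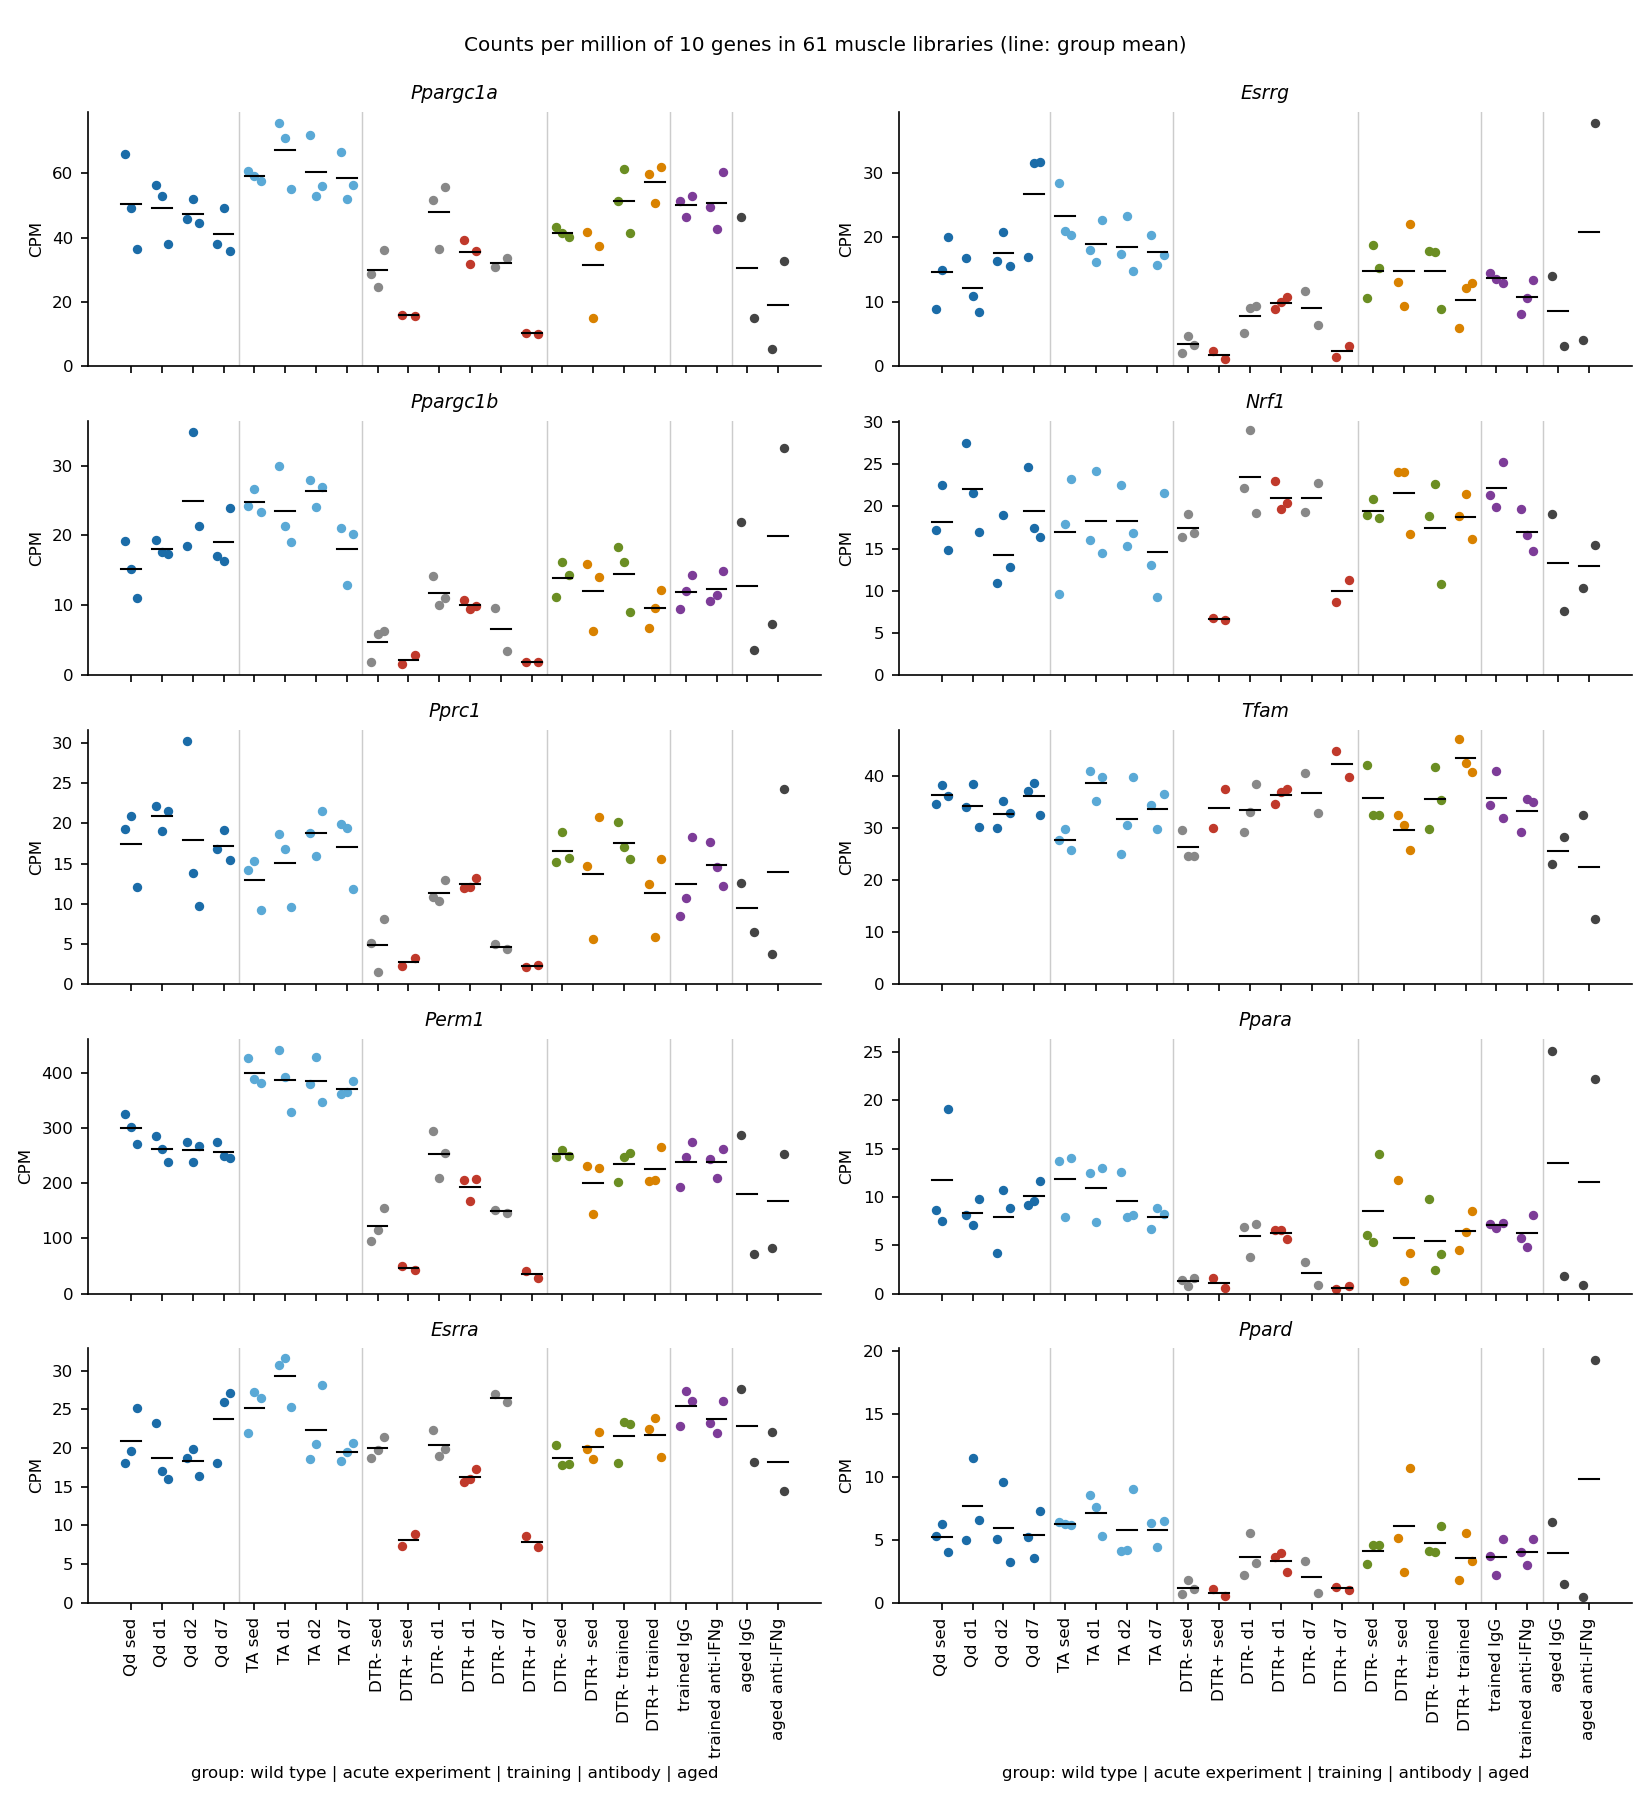
CPM of the 10 genes (one panel each, y axis from 0) in the 22 groups on the x axis, each point a library and each black line a group mean, with grey lines between experiments. Perm1 ranged from a mean of 34.9 CPM in day 7 DTR+ quadriceps to 399 CPM in sedentary tibialis anterior, whereas Tfam ranged from 22.6 to 43.6 CPM.

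Across the 22 groups, Ppargc1a had its highest mean in tibialis anterior at day 1 (67.2 ± 10.7 CPM, SD, n = 3) and its lowest in day 7 DTR+ quadriceps of the acute experiment (10.2 ± 0.411, n = 2), which is 6.61-fold. In the order of its means, neighbouring groups had overlapping libraries in 19 of 21 steps. Perm1 spanned 11.5-fold, and 18 of its 21 steps overlapped. The span was 13.7-fold for Ppargc1b, 8.91-fold for Pprc1, 15.4-fold for Esrrg, more for Ppara, whose lowest mean was 0.612 CPM, 12.2-fold for Ppard, 3.70-fold for Esrra and 3.53-fold for Nrf1. Tfam spanned 1.93-fold, and all 21 of its steps overlapped. Levels set across experiments may also carry differences between sequencing runs, which scaling to a library's total does not remove. Tests were therefore run within each experiment.

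The lowest group of 6 genes (Ppargc1a, Ppargc1b, Pprc1, Perm1, Esrra and Ppara) was day 7 DTR+, and that of 3 genes (Esrrg, Nrf1 and Ppard) was sedentary DTR+. Tfam alone had its lowest mean elsewhere, in the aged mice given the antibody. Within experiments the spans of CPM differed. CPM of other genes is lower where mitochondrial transcripts take many counts, as in sedentary and day 7 DTR+ libraries. Group means of Ppargc1a spanned 4.72-fold in the acute experiment, 1.83-fold in the training experiment, 1.23-fold in wild-type quadriceps and 1.15-fold in wild-type tibialis anterior. For Perm1 these spans were 7.26-fold, 1.26-fold, 1.17-fold and 1.08-fold.

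Differences were tested with edgeR's quasi-likelihood test, adjusted over all genes of a comparison by the Benjamini-Hochberg method, and a gene was called at an adjusted p under 0.05. Over 26 comparisons, 20 of group pairs and 6 of responses, 19 of 260 tests of a member passed. Of these, 18 lay in the 9 acute comparisons and 1 in the other 17. All genes were divided in the same way. The share of them called ran from 0 to 42.4% in the acute comparisons and reached at most 2.21% in the others. Fitted fold changes use TMM scaling and so differ from ratios of CPM where a few transcripts take many counts. Overlap of libraries is described in CPM and for the members only, with no share over all genes beside it.

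**Figure D2:**
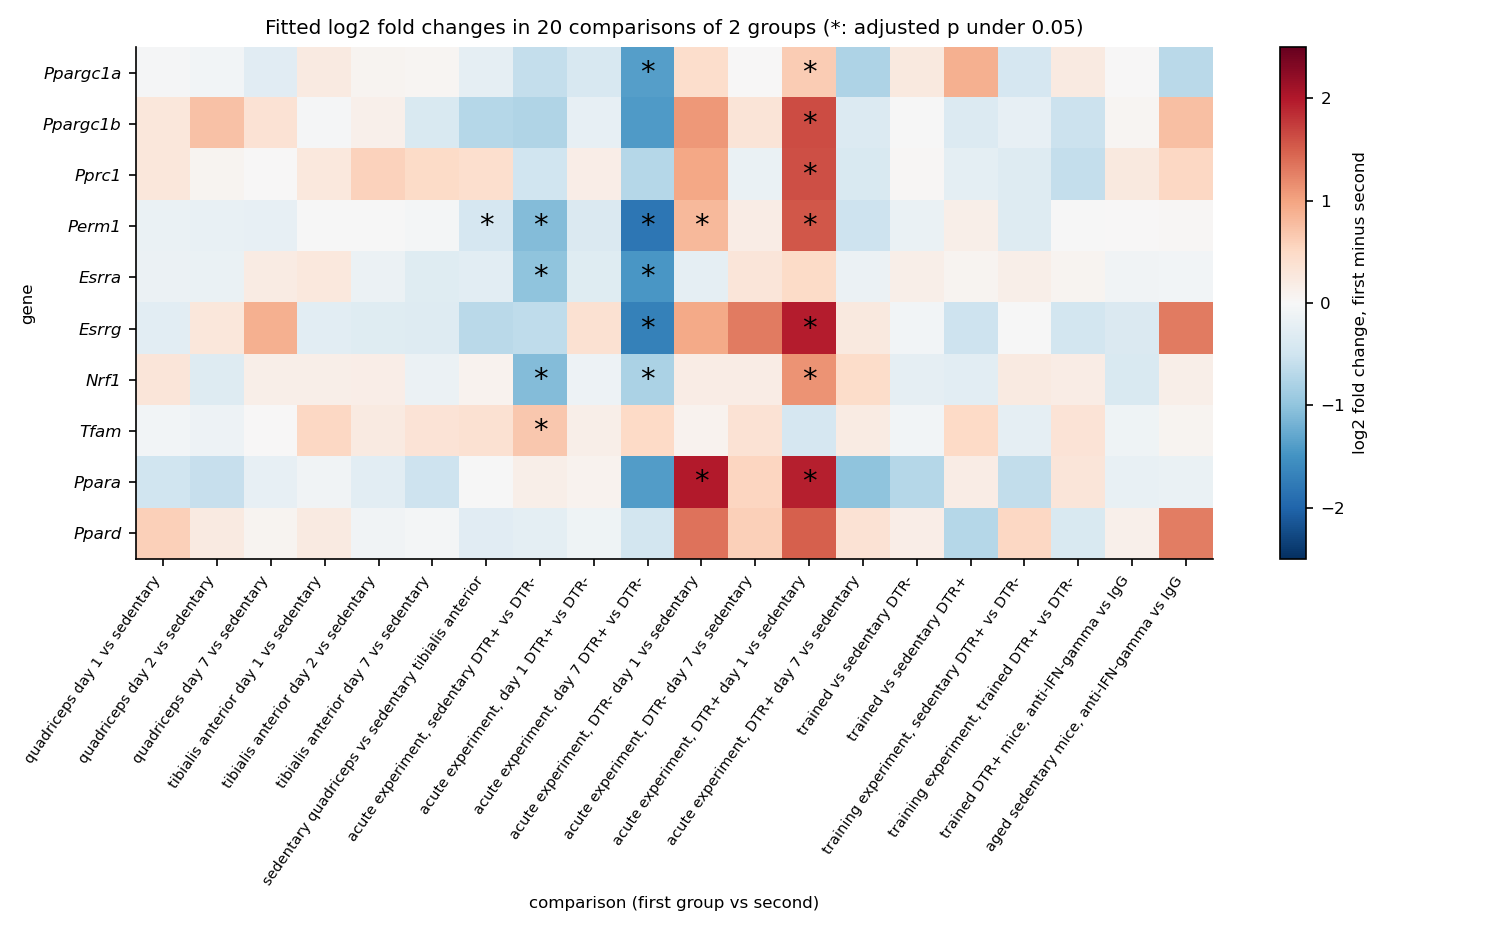
Fitted log2 fold change (colour, first group minus second) of each gene (rows) in the 20 comparisons of group pairs (columns), with an asterisk where the adjusted p was under 0.05. The asterisks lie in the acute experiment apart from Perm1 between the sedentary muscles, and Tfam has the one asterisk for a higher level in sedentary DTR+ than DTR- mice.

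In sedentary wild-type mice Perm1 was lower in quadriceps than in tibialis anterior. The 3 quadriceps libraries had 326, 301 and 271 CPM (299 ± 27.3, SD, n = 3) and the 3 tibialis anterior libraries 427, 389 and 382 (399 ± 24.5, n = 3). The groups did not overlap. The log2 difference was -0.42 ± 0.10 (SE), with an adjusted p of 0.0377 by edgeR. Both muscles came from the same animals, a pairing that this fit did not use. Perm1 was the 1 member called, where 1.3% of all genes were called, 0.716% lower and 0.586% higher. The call held in 1 of 6 refits that left out a library and was lost without quadriceps 6, quadriceps 7 or tibialis anterior 5, 6 or 7 (adjusted p up to 0.227). With the length and GC trend removed the difference was -0.39 with an adjusted p of 0.0605.

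The coactivator gene Ppargc1a had 65.9, 49.1 and 36.5 CPM in these quadriceps and 60.8, 59.0 and 57.5 in tibialis anterior, with overlapping libraries and a log2 difference of -0.23 ± 0.18 (adjusted p = 0.756). Ppargc1b (chr18:61298136-61400431) had 19.2, 15.2 and 11.03 against 24.2, 26.7 and 23.4 CPM. Its groups were apart, but its difference of -0.71 ± 0.24 had an adjusted p of 0.19. Genes of the respiratory chain and Krebs cycle, targets of the estrogen-related receptors, were lower in quadriceps in 17 of 32 tested and higher in 0. Their median log2 difference was -0.28 against 0.01 over all genes, and under each other scaling 19 to 23 were lower and 0 higher. Among them, Atp5a1 and Cox4i1, subunits of ATP synthase and of cytochrome oxidase, had log2 differences of -0.38 and -0.35. Slow-fibre markers moved with this comparison: 7 of 7 were called higher in quadriceps, with a summed level of 678 to 1246 CPM against 179 to 184, and their part in the result was not tested. In bulk muscle, fewer cells of a type and less RNA per cell cannot be told apart.

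After a bout of exercise no member was called in wild-type muscle. In quadriceps Ppargc1a gave 56.4, 53.0 and 38.0 CPM at day 1, 45.8, 51.8 and 44.5 at day 2 and 38.0, 49.1 and 35.9 at day 7. Each of these ranges overlapped the sedentary one. The 95% interval of its log2 change was -0.40 to 0.36 at day 1, -0.46 to 0.31 at day 2 and -0.66 to 0.11 at day 7. In tibialis anterior it had 75.7, 70.8 and 55.2 CPM at day 1, with an interval of -0.08 to 0.53. The intervals there were -0.23 to 0.38 at day 2 and -0.25 to 0.35 at day 7. Changes larger than these bounds lie outside the intervals, which cover the spread between libraries only and are approximate with so few libraries.

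Over the 6 time comparisons, which share their sedentary libraries within a muscle, edgeR called 0 of 60 member tests, with 3 at an unadjusted p under 0.05. DESeq2 called 0, with 4 at an unadjusted p under 0.05. The share of all genes called was 0.582%, 0.299% and 0.214% in quadriceps at days 1, 2 and 7, and 0.0552%, 0.063% and 0.0158% in tibialis anterior. The 3 with the smallest p were Tfam in tibialis anterior at day 1 (0.52 ± 0.16, adjusted p = 0.34), Ppargc1b in quadriceps at day 2 (0.73 ± 0.25, adjusted p = 0.336) and Esrrg in quadriceps at day 7 (0.88 ± 0.30, adjusted p = 0.389). Tfam had 41.0, 35.2 and 39.9 CPM at day 1 against 27.8, 29.8 and 25.8 in sedentary tibialis anterior, which do not overlap. Esrrg, a receptor enriched in oxidative muscle, had 16.9, 31.5 and 31.7 CPM at day 7 against 8.82, 14.9 and 20.1, which do. Tests of whether the response differed between the muscles called 0 of 30 by edgeR and 0 by DESeq2, with 3 and 3 at an unadjusted p under 0.05. There, 0.0434%, 0.00724% and 0.0796% of all genes were called at days 1, 2 and 7.

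In the acute experiment, sedentary DTR+ quadriceps had lower Perm1, Esrra and Nrf1 and higher Tfam than sedentary DTR- quadriceps. Perm1 had 49.4 and 42.6 CPM in DTR+ and 95.01, 115 and 156 in DTR-, a log2 difference of -1.09 ± 0.22 (adjusted p = 0.000813). Esrra, the receptor through which PGC-1 alpha acts on oxidative genes, had 7.29 and 8.85 CPM against 18.7, 19.8 and 21.4, a difference of -0.997 ± 0.23 (adjusted p = 0.00337). Nrf1, a factor for nuclear genes of the respiratory chain, had 6.79 and 6.48 CPM against 16.3, 19.0 and 16.8, a difference of -1.08 ± 0.26 (adjusted p = 0.00404). For each of the 3 genes every DTR+ library was below every DTR- library in CPM. This separation carries little weight with 2 DTR+ and 3 DTR- libraries. CPM also leaves out the TMM factors, which were 0.778 to 0.787 in DTR+ and 0.942 to 0.988 in DTR-. Tfam had 30.1 and 37.7 CPM against 29.7, 24.7 and 24.7, a difference of 0.67 ± 0.19 in the other direction (adjusted p = 0.012). The lower DTR+ library of Tfam was close to the highest DTR- one.

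Ppargc1a itself had 15.9 and 15.7 CPM in sedentary DTR+ and 28.7, 24.6 and 36.2 in sedentary DTR-. The groups did not overlap, but the difference of -0.60 ± 0.23 had an adjusted p of 0.0542. With the length and GC trend removed, its difference was -0.90 ± 0.23 with an adjusted p of 0.00843. Of the 10 members 3 were called lower, where 14.5% of all genes were, and 1 higher, where 12.1% were, or 26.6% in either direction. Shares of all genes, here and below, are those before the trend was removed, and none is given for refits. After removal of the trend Esrra, Nrf1 and Tfam kept their calls, Ppargc1a gained one, and Perm1 lost its call at -0.43 ± 0.20 (adjusted p = 0.136). Ppargc1b, not called either way, went from -0.75 ± 0.50 to 0.32 ± 0.48 and so changed sign, as did Pprc1. Leaving out 1 library at a time gave 3 to 5 called members. Tfam was lost without DTR+ replicate 3 or DTR- replicate 3 (adjusted p of 0.162 and 0.0555), and Ppargc1a was called without DTR- replicate 2 (adjusted p = 0.0355).

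At day 7 of recovery, 5 members were lower in DTR+ than in DTR- quadriceps and 0 were higher. Ppargc1a had 10.5 and 9.88 CPM in DTR+ and 30.7 and 33.5 in DTR-, a log2 difference of -1.38 ± 0.25 (adjusted p = 0.000428). Perm1 had 41.5 and 28.2 CPM against 151 and 147, a difference of -1.81 ± 0.24 (adjusted p = 1.82e-05). Both DTR+ libraries were far below both DTR- libraries for these 2 genes. Esrra had 8.68 and 7.15 CPM against 27.0 and 26.0, a difference of -1.45 ± 0.25 (adjusted p = 0.000256). Esrrg had 1.45 and 3.12 CPM against 11.6 and 6.46, a difference of -1.69 ± 0.52 (adjusted p = 0.0213). Nrf1 had 8.68 and 11.3 CPM against 19.3 and 22.7, a difference of -0.80 ± 0.27 (adjusted p = 0.0361). None of these groups overlapped, which carries little weight with 2 libraries per genotype, and the libraries of Esrrg were spread widely within each. Tfam had 44.8 and 39.9 CPM against 40.6 and 32.9, which overlap, with a difference of 0.50 ± 0.21 (adjusted p = 0.0843). Ppargc1b had 1.89 and 1.95 CPM against 9.66 and 3.45 (-1.43 ± 0.56, adjusted p = 0.0656).

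The 5 members lower at day 7 compare with 14% of all genes lower and 11.3% higher, or 25.3% in either direction. Removing the length and GC trend kept all 5, at -1.58 for Ppargc1a, -1.17 for Perm1, -1.31 for Esrra, -1.88 for Esrrg and -0.81 for Nrf1, and DESeq2 called these 5 and Tfam, the last one higher. Each of the 4 refits without 1 library left a single library in a genotype, with its spread taken from the other groups. Their calls therefore do not show stability. The log2 difference then ran from -1.47 to -1.29 for Ppargc1a, -2.14 to -1.57 for Perm1 and -1.63 to -1.33 for Esrra. It ran from -2.33 to -1.24 for Esrrg and from -1.01 to -0.64 for Nrf1. Fitted on these 2 groups alone, Ppargc1a, Perm1 and Esrra were called, and Esrrg and Nrf1 were not. Nrf1 was also not called with RLE scaling, without the low-count filter or with the replicate numbers as a block. Markers of other cells moved with the genotype at day 7. T and NK cell markers were higher in 4 of 6 tested, with a summed level of 21.9 to 62.3 CPM in DTR+ against 3.90 to 7.25 in DTR-, and macrophage markers in 5 of 9 (304 to 546 against 220 to 258 CPM), with 1 lower. Their part in the result was not tested. In sedentary mice the T and NK markers had 5.43 to 8.85 CPM in DTR+ and 5.02 to 6.21 in DTR-, with 0 of 6 called.

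**Figure D3:**
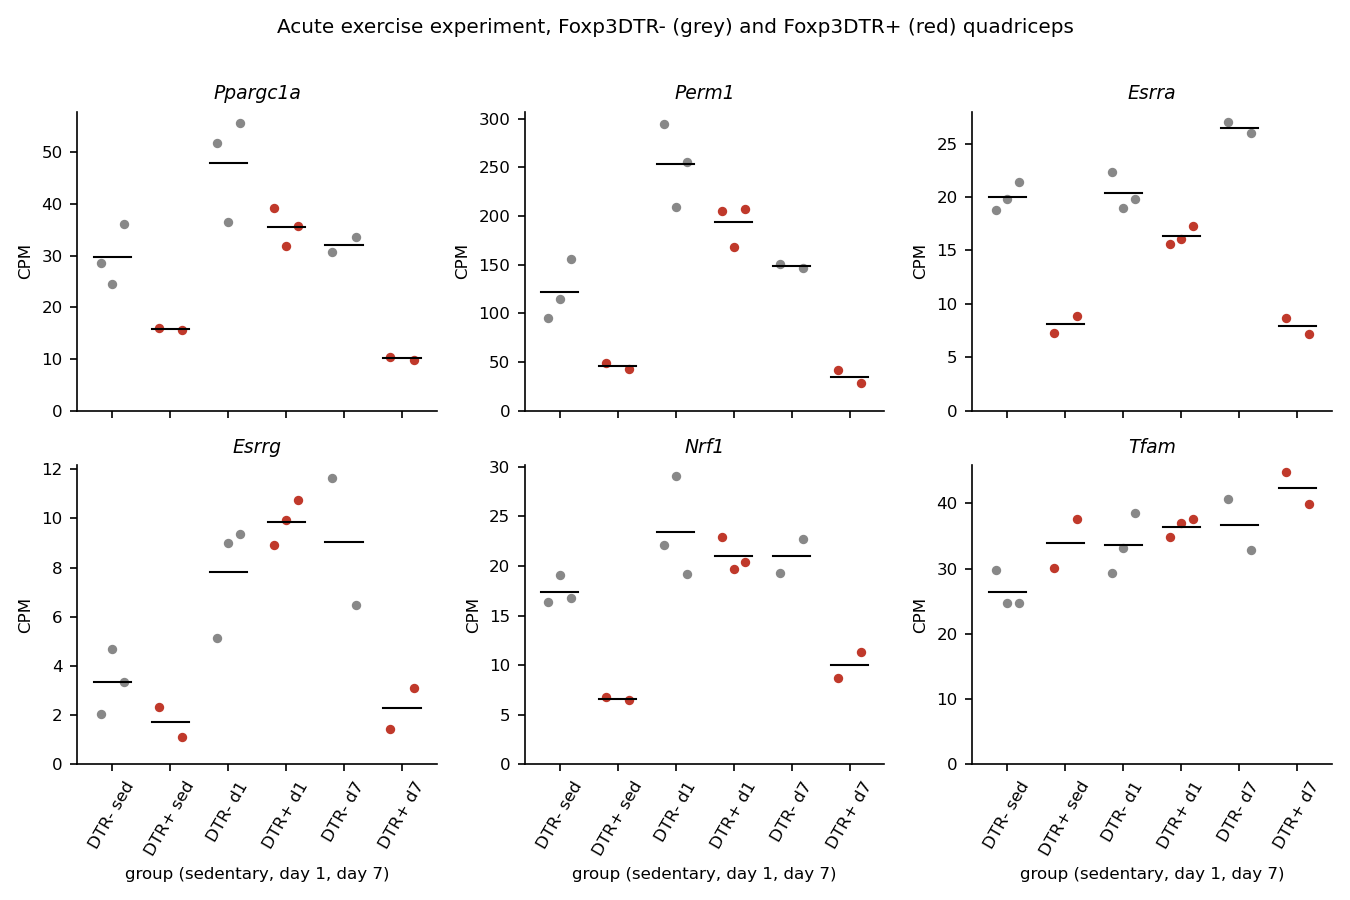
CPM of 6 genes (panels, y axis from 0) in the 6 groups of the acute experiment on the x axis, each point a quadriceps library and each line a group mean, DTR- in grey and DTR+ in red. DTR+ libraries of Perm1 lie at 28.2 to 49.4 CPM in sedentary and day 7 mice and at 168 to 207 CPM at day 1, while Tfam stays between 24.7 and 44.8 CPM in all 15 libraries.

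In the acute experiment Perm1 was higher at day 1 than in sedentary mice of both genotypes. Wild-type quadriceps did not show this, with Perm1 means of 262 CPM at day 1 and 299 in sedentary mice and no call. In DTR- mice it had 294, 210 and 255 CPM against 95.01, 115 and 156 in sedentary mice, a log2 change of 0.81 ± 0.18 (adjusted p = 0.00501). Ppara, the fatty-acid receptor that drives genes of fat oxidation, had 6.87, 3.74 and 7.22 CPM against 1.42, 0.732 and 1.61, a change of 1.99 ± 0.53 (adjusted p = 0.0144). The day 1 libraries of both genes were above all sedentary ones. These 2 were the members called in DTR- mice, both higher, where 8.16% of all genes were higher and 8.24% lower, or 16.4% in either direction. With the trend removed Perm1 changed by 0.63 (adjusted p = 0.0189) and Ppara by 1.90 (adjusted p = 0.0266). Ppara was lost without sedentary DTR- replicate 2, day 1 DTR- replicate 1 or day 1 DTR- replicate 3, which left 1 call, and 3 were called without sedentary DTR- replicate 3, with Pprc1 the third. Ppargc1a had 51.8, 36.6 and 55.6 CPM at day 1 and 28.7, 24.6 and 36.2 in sedentary DTR- mice, a change of 0.43 ± 0.19 with an adjusted p of 0.132.

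In DTR+ mice 7 members were higher at day 1 than in sedentary mice, where 24.3% of all genes were higher and 18.1% lower, or 42.4% in either direction. Perm1 had 206, 168 and 207 CPM against 49.4 and 42.6, a log2 change of 1.54 ± 0.22 (adjusted p = 9.91e-06). Ppargc1a had 39.3, 31.9 and 35.7 CPM against 15.9 and 15.7, a change of 0.64 ± 0.23 (adjusted p = 0.0274). Day 1 libraries of both lay wholly above the sedentary ones. Ppargc1b had 10.8, 9.43 and 9.93 CPM against 1.61 and 2.87, a change of 1.63 ± 0.50 (adjusted p = 0.0125). Pprc1 had 11.9, 12.1 and 13.3 CPM against 2.35 and 3.24, a change of 1.62 ± 0.47 (adjusted p = 0.00926). Esrrg had 8.91, 9.94 and 10.8 CPM against 2.35 and 1.12, a change of 1.97 ± 0.50 (adjusted p = 0.0033). Here too the groups were apart, from sedentary libraries of few counts. Nrf1 had 22.9, 19.7 and 20.4 CPM against 6.79 and 6.48, a change of 1.13 ± 0.26 (adjusted p = 0.00145). Ppara had 6.58, 6.53 and 5.61 CPM against 1.61 and 0.624, a change of 1.93 ± 0.63 (adjusted p = 0.0181). Tfam had 34.8, 37.0 and 37.6 CPM against 30.1 and 37.7, which overlap, with a fitted change of -0.43 ± 0.19 (adjusted p = 0.0708).

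Several of these 7 calls moved with the processing. The median over all genes was 0.28 in this comparison, 0.20 with DESeq2 or RLE scaling and 0.13 with the length and GC trend removed. The fitted values were not centred on these medians, so this shift is still in them. With the trend removed 3 members were higher, Perm1 (0.69, adjusted p = 0.00967), Esrrg (1.93, adjusted p = 0.0047) and Nrf1 (1.01, adjusted p = 0.00424), and Tfam was lower (-0.53, adjusted p = 0.0387). Ppargc1a was then at 0.56 ± 0.22 (adjusted p = 0.0574), Ppara at 1.32 ± 0.63 (adjusted p = 0.112), Ppargc1b at 0.34 ± 0.47 (adjusted p = 0.601) and Pprc1 at 0.48 ± 0.46 (adjusted p = 0.437). DESeq2 called 7 higher and Tfam lower, and RLE scaling in edgeR 6 higher, without Ppargc1a, and Tfam lower. Without sedentary DTR+ replicate 2, 4 were called, with Ppargc1a, Ppargc1b and Pprc1 lost. Without sedentary DTR+ replicate 3, 4 were called, with Ppargc1a, Esrrg and Ppara lost. Ppargc1a was also lost without day 1 DTR+ replicate 1 or 3 (adjusted p of 0.0842 and 0.0597). Perm1 and Nrf1 were called without each day 1 library. Leaving out a sedentary DTR+ library left a single one in that group, with its spread taken from the other groups.

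**Figure D4:**
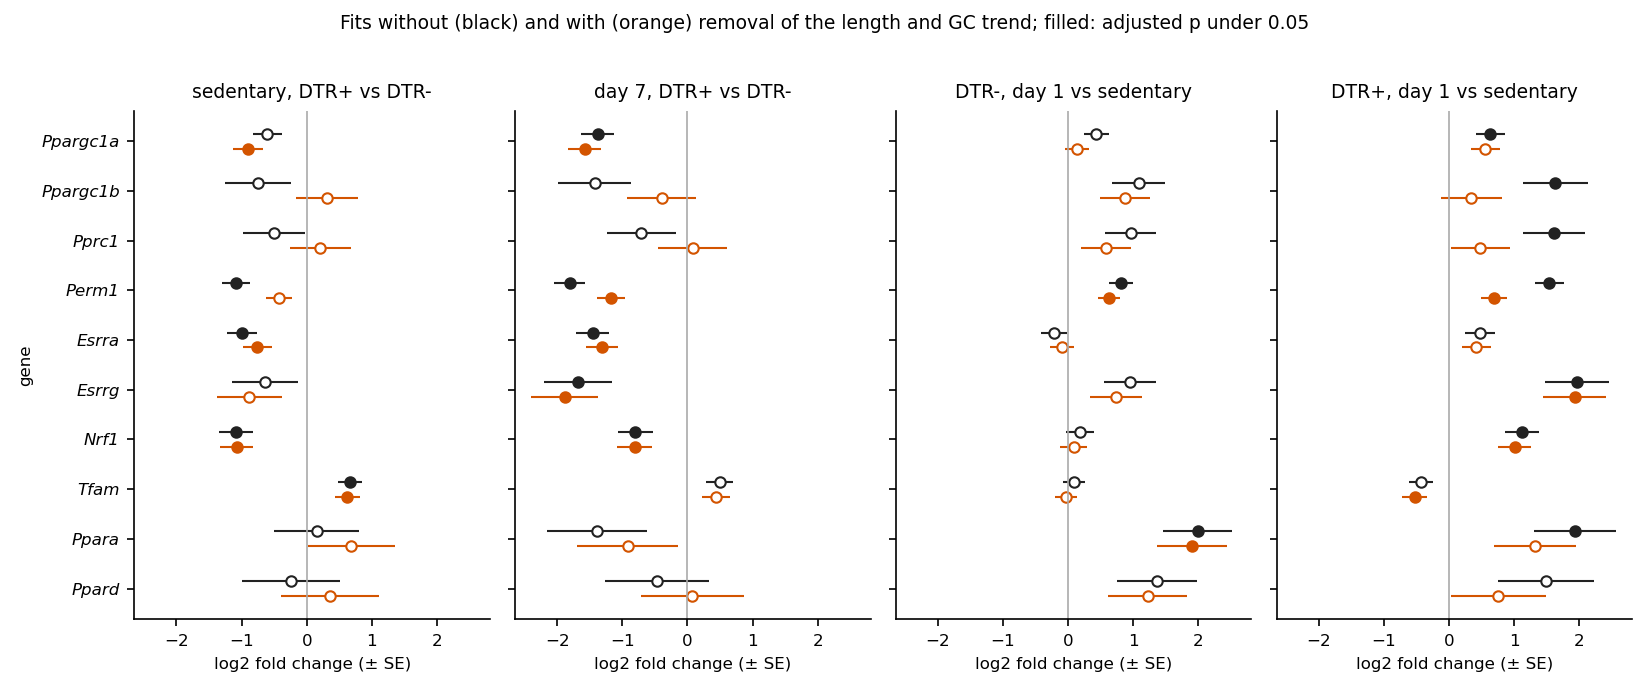
Fitted log2 fold change with its SE (x axis) of each gene (y axis) in 4 acute comparisons (panels), without (black) and with (orange) removal of the length and GC trend, filled where the adjusted p was under 0.05. Ppargc1b moves from 1.63 to 0.34 at day 1 in DTR+ mice and Perm1 from -1.09 to -0.43 in sedentary mice, while Esrra and Nrf1 keep filled points in both DTR+ against DTR- panels.

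Between the genotypes at day 1, edgeR called 0 members and 0 of the 14245 genes tested (280 genes and 1 member at an unadjusted p under 0.05), that is 0% of all genes, and DESeq2 called 0 members. The member was Ppargc1a, with 39.3, 31.9 and 35.7 CPM in DTR+ and 51.8, 36.6 and 55.6 in DTR-, which overlap, and an interval of -0.77 to -0.03. At day 7 no member was called against sedentary mice of the same genotype, where 0.00702% of all genes were called in DTR- and 1.01% in DTR+ mice. EdgeR had 3 of these 20 tests at an unadjusted p under 0.05, and DESeq2 called 0 and had 3. They were Esrrg in DTR- (1.30 ± 0.45, adjusted p = 0.472) and Ppargc1a (-0.76 ± 0.26, adjusted p = 0.166) and Perm1 (-0.52 ± 0.24, adjusted p = 0.312) in DTR+. These time comparisons share their sedentary libraries with those at day 1 and with the comparison of the sedentary genotypes, and the comparisons of genotypes at days 1 and 7 share the exercised ones.

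Whether the response to exercise differed between the genotypes was tested directly. At day 1 the difference of the responses, DTR+ minus DTR-, was 0.94 ± 0.33 for Nrf1 (adjusted p = 0.06), 0.73 ± 0.28 for Perm1 (adjusted p = 0.0828) and 0.20 ± 0.29 for Ppargc1a (adjusted p = 0.701). None of the 10 was called, where 15.3% of all genes were. Perm1 was called without day 1 DTR- replicate 1 or sedentary DTR- replicate 1, Nrf1 without day 1 DTR- replicate 2, and Perm1 with no low-count filter, each giving 1 call. With the trend removed Perm1 was at 0.06 ± 0.26 and Nrf1 at 0.93 ± 0.33 (adjusted p = 0.0806). At day 7 no member was called, where 0.0772% of all genes were. Over both days edgeR had 5 of 20 member tests at an unadjusted p under 0.05, and DESeq2 called 0 and had 6.

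The wider pathway was read from lists of genes, none of them a member. Upstream regulators of PGC-1 alpha (kinases, deacetylases, corepressors and factors that act on its gene or protein) had 6 of 33 higher and 10 lower in sedentary DTR+ against DTR- mice, with a median of -0.05 against -0.06 over all genes. The calcineurin subunits Ppp3ca and Ppp3cb were higher (1.07 ± 0.15 and 1.17 ± 0.20), and Mef2d, a muscle activator of Ppargc1a, and Flcn, a brake on AMPK signalling, were lower (-1.49 ± 0.21 and -1.03 ± 0.18). With the trend removed 6 were higher and 2 lower with a median of 0.10, so the balance of this list changed side. At day 7 it had 4 higher and 11 lower (median -0.03), or 5 and 2 with the trend removed (median 0.08). There Camk2a and Prkag3, subunits of the calcium-driven kinase CaMKII and of AMPK, were lower (-1.997 ± 0.25 and -1.59 ± 0.26). Of 13 other nuclear partners, 1 was higher and 3 lower in sedentary mice (2 and 2 with the trend removed), with Rxra, the partner of the PPARs on DNA, at -0.75 ± 0.27. At day 7, Rxra was the 1 called, at -0.84 ± 0.29 (1 higher and 1 lower with the trend removed).

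Targets did not follow as one block. Of 32 respiratory chain and Krebs cycle genes 16 were higher and 7 lower in sedentary DTR+ than DTR- mice, with a median of 0.36 against -0.06 over all genes. RLE scaling gave 17 and 4, and removal of the trend 14 and 3. Cytochrome c (Cycs) was higher by 1.67 ± 0.17, and the cytochrome oxidase subunit Cox7a1 by 1.54 ± 0.15. At day 7, 17 were higher and 5 lower, or 11 and 5 with the trend removed. Fatty acid oxidation and PPAR target genes had 3 of 27 higher and 10 lower in sedentary mice (4 and 8 with the trend removed), with a median of -0.32. Cpt1b, which admits fatty acids to mitochondria, was at -3.45 ± 0.44 and Hadha, a subunit of the mitochondrial trifunctional protein, at -1.30 ± 0.15. The mean of Cpt1b was 0.996 CPM in sedentary DTR+ and 13.6 in sedentary DTR- mice, so its fold change rests on few counts. At day 7 this list had 5 higher and 12 lower, or 6 and 7 with the trend removed. In both comparisons most called respiratory genes were thus higher, under each scaling given, while Esrra, a known activator of such genes, was lower.

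Mitochondrially encoded mRNAs were higher in sedentary DTR+ mice in 10 of 13 with 0 lower (median 1.41), and at day 7 likewise in 10 with 0 lower (median 1.34). With the trend removed these counts were 3 higher and 1 lower (median 0.22) and 3 higher and 2 lower (median 0.08). Among 16 other genes of mitochondrial DNA transcription and replication, 4 were higher and 1 lower in sedentary DTR+ mice, with Slirp at 1.30 ± 0.17 and Tefm, the mitochondrial elongation factor, at 1.31 ± 0.19. DESeq2 gave 4 and 2 there. At day 7, 4 were higher and 2 lower, and the mitochondrial RNA polymerase Polrmt was at -1.89 ± 0.43. IFN-gamma response genes were higher in 4 of 20 in sedentary DTR+ mice and in 18 of 20 at day 7, with 0 lower in either. Under DESeq2 the sedentary counts were 3 higher and 1 lower.

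The comparison of day 1 with sedentary DTR+ mice uses the same sedentary DTR+ libraries as the comparison above. In it, respiratory genes had 3 of 32 higher and 23 lower (median -0.96 against 0.28 over all genes), and 3 and 21 with the trend removed. Mitochondrially encoded mRNAs had 1 higher and 10 lower, or 3 and 7 with the trend removed. The regulator list had 14 higher and 8 lower, but 5 and 8 with the trend removed, so its balance changed side. In DTR- mice 1 respiratory gene was higher and 25 were lower (median -0.49 against 0.09), or 2 and 11 with the trend removed. Fatty acid oxidation and PPAR target genes had 11 of 27 higher and 8 lower in DTR+ mice (median 0.34 against 0.28), or 9 and 8 with the trend removed. Among them, Cpt1b was at 3.49 ± 0.44, from a mean of 0.996 CPM in sedentary DTR+ mice, and Hadha at 1.48 ± 0.15. In DTR- mice this list had 4 higher and 9 lower (median -0.06 against 0.09), or 2 and 5 with the trend removed.

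In the training experiment no member passed the test in any of the 5 comparisons. Ppargc1a had 59.6, 50.7 and 61.8 CPM in trained and 41.7, 14.9 and 37.5 in sedentary DTR+ mice. All 3 trained libraries were above all 3 sedentary ones, of which replicate 2 was far below the others. The log2 change was 0.88 ± 0.25 with an adjusted p of 0.0738, where 2.21% of all genes were called. Ppargc1a was called by DESeq2 (adjusted p = 0.0262), with no low-count filter (0.0147) and with the length and GC trend removed (0.95 ± 0.20, adjusted p = 0.0108). It was not called with RLE scaling (adjusted p = 0.0705), with the replicate numbers as a block (0.0816) or in a fit on these 2 groups alone (0.287). Of the 6 refits without a library it was called in 1, that without sedentary DTR+ replicate 1 (adjusted p = 0.0341). It was not called without the low replicate 2. Over the 6 refits its change ran from 0.57 to 1.15 with adjusted p up to 0.205. Perm1 had 205, 205 and 266 CPM in trained and 231, 144 and 228 in sedentary DTR+ mice, which overlap (0.14 ± 0.17, adjusted p = 0.8). Tfam had 47.2, 42.6 and 40.9 against 32.6, 30.6 and 25.9 CPM, which do not (0.50 ± 0.21, adjusted p = 0.28).

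In DTR- mice Ppargc1a had 51.3, 61.3 and 41.5 CPM after training and 43.3, 41.3 and 40.1 at rest, with an interval of -0.24 to 0.73, where 0.103% of all genes were called. The training response of Ppargc1a differed between the genotypes by 0.64 ± 0.35 (adjusted p = 0.809), where 0.27% of all genes were called, so a difference was not shown. Between the genotypes 0.0477% of all genes were called at rest and 0.89% after training. Over the 50 member tests edgeR called 0, with 2 at an unadjusted p under 0.05, and DESeq2 called 1, with 2. Among trained DTR+ mice, fatty acid oxidation genes were higher than at rest in 4 of 26 with 0 lower (median 0.43 against -0.04), or 7 with DESeq2 or the trend removed. They included Decr1 and Hadha, enzymes of the oxidation cycle (0.91 ± 0.16 and 0.70 ± 0.17), and the fatty acid transporter Cd36 (0.89 ± 0.17). Respiratory genes were higher in 2 of 32 (Cs, citrate synthase, at 0.57 ± 0.14, and Ckmt2, mitochondrial creatine kinase, at 0.95 ± 0.21), or 7 with the trend removed. IFN-gamma response genes were higher in 15 of 20, and the summed T and NK cell markers had 8.91 to 15.4 CPM against 1.79 to 5.55, although 1 of these 8 markers was tested and 0 were called. The part of these in the values of Ppargc1a was not tested.

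**Figure D5:**
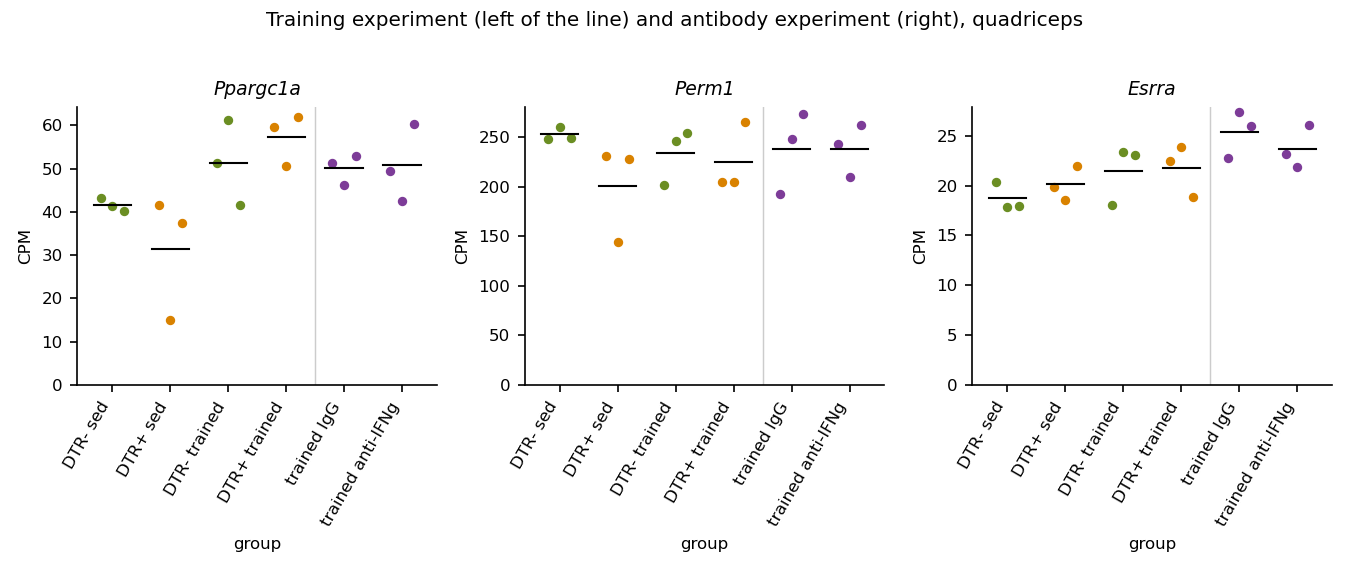
CPM of Ppargc1a, Perm1 and Esrra (panels, y axis from 0) in the groups of the training experiment (left of the grey line) and of the antibody experiment (right), each point a quadriceps library and each line a group mean. Sedentary DTR+ replicate 2 is the lowest point for Ppargc1a (14.9 CPM) and for Perm1 (144 CPM).

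Neutralizing IFN-gamma in trained DTR+ mice left no called difference among the members. Ppargc1a had 49.6, 42.6 and 60.3 CPM with the antibody and 51.3, 46.2 and 52.9 with IgG, a log2 difference of 0.02 ± 0.14 and an interval of -0.26 to 0.30. Perm1 had 243, 210 and 262 CPM against 192, 248 and 274, with an interval of -0.24 to 0.25. Both genes overlapped between the groups. Nrf1 had 19.7, 16.6 and 14.7 CPM against 21.3, 19.9 and 25.3, which do not overlap, with a difference of -0.39 ± 0.18 (adjusted p = 0.488). EdgeR called 0 of 10, with 1 at an unadjusted p under 0.05, and DESeq2 called 0 and had 0, where 1.35% of all genes were called by edgeR. In the same libraries the IFN-gamma response genes were lower in 17 of 19 tested, with 0 higher.

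In aged mice Ppargc1a and Perm1 differed more between the 2 libraries of a group than between the group means. Ppargc1a had 46.3 and 14.9 CPM with IgG and 5.19 and 32.6 with the antibody, an interval of -2.73 to 1.38. Perm1 had 287 and 72.5 CPM with IgG and 82.7 and 253 with the antibody. EdgeR called 0 of 10 members and 0% of all genes, and for the members 0 were at an unadjusted p under 0.05 by edgeR or DESeq2, which also called 0. The SE of the 10 log2 differences ran from 0.90 to 1.51, so only very large differences could have passed.

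The members varied together to different degrees. Over the 22 group means, each centred within its experiment, Pearson's r of Perm1 was 0.87 with Ppargc1a, 0.88 with Ppargc1b, 0.84 with Pprc1 and Nrf1 and 0.81 with Esrra. Ppargc1b and Pprc1 correlated at 0.87. Tfam stood apart, with r between -0.27 and 0.10 with the other 9. The genes most like Ppargc1a among 8896 compared on the same means were Ppif (r = 0.95), Rcsd1 (0.95) and Atp5a1 (0.95). Those most like Perm1 were Kmt2d, Dcaf8 and Alpk3 (0.99, 0.99 and 0.98), and those most like Esrra were Usb1, Wdr24 and Rnaseh2b (0.95, 0.94 and 0.92). These values are descriptions over groups that share libraries' depth and length trend, and the acute groups hold most of the spread.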

How the data were processed

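RNA-seq was made from 2 ng of muscle RNA with poly(A) selection, per the labels' protocols. The authors deposited whole-number gene counts, and per the submitters' processing notes these came from STAR 2.7.3a and featureCounts with mm10. No source used here gives the annotation, strand use or treatment of multi-mapping reads. All columns of the table were matched to a sample by name.

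Each experiment was fitted on its own with edgeR 4.0.16 (R 4.3.3): filterByExpr (minimum count 10, minimum total 15), TMM scaling and the quasi-likelihood F test over all groups of the experiment, with p-values adjusted over all genes. The SE of a log2 fold change was taken as its size over the square root of F. Intervals of 95% are the change ± 1.96 SE, a normal multiplier that makes them too narrow with few libraries. Wild-type quadriceps and tibialis anterior were fitted separately for the time courses and together for comparisons between the muscles. Scripts were tested on simulated data. Alternatives were DESeq2 1.42.0, RLE scaling, no filter, only the 2 groups compared, a replicate block, leaving out each library, and removal of a trend on length and GC content (natural splines, 4 df each), whose gene properties came from GENCODE vM21 for 52936 matched symbols. Depth ran from 3359683 to 14445336 counts, so 3 counts equal 0.208 to 0.893 CPM, and this covers counting error only.

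Wild-type quadriceps and tibialis anterior with the same number came from the same animal, so the animal was used as a block in an alternative. The deviations of these 12 pairs from their group means correlated at a median of 0.02 (-0.03 to 0.05). For the acute and training experiments the labels do not say that libraries came from separate animals, so p-values there measure the spread between libraries. The members and the gene lists were chosen with earlier results of these data known. Genes named from a list were taken from its called genes with the smallest p, up to 3 a comparison, or 4 where at least 10% of all genes were called, and likeness was taken as Pearson's r of log2(CPM + 1) among genes with a mean of at least 5 CPM.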

Additional observations from a re-analysis of the deposited data

How the results depend on the processing

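No called member reversed direction under any alternative run. Of the 19 calls, DESeq2 kept 19, RLE scaling 17, no filter 17, the fit on 2 groups alone 16, the replicate block 18, and removal of the length and GC trend 13, with or without the block. Counts of called members that moved by over 1.5 times, or from or to 0, were these. For sedentary quadriceps against tibialis anterior 1 became 0 with the trend removed, and 0 to 1 when a library was left out. For day 7 DTR+ against DTR- 5 became 3 in the fit on 2 groups alone, and 3 to 5 without a library. For day 1 against sedentary DTR+ mice 7 became 4 with the trend removed, also 4 with the replicate block and the trend removed, and 4 to 7 without a library. For DTR- mice 2 became 1 to 3 without a library. For the difference in day 1 response 0 became 1 with no filter, and 0 to 1 without a library. For trained against sedentary DTR+ mice 0 became 1 by DESeq2, with no filter, with the trend removed and with the replicate block and the trend removed, and 0 to 1 without a library. Smaller moves included 4 becoming 3 to 5 without a library for sedentary DTR+ against DTR-, and 5 becoming 6 at day 7 and 7 becoming 8 at day 1 in DTR+ mice by DESeq2. The causes were not tested, except that fits on fewer libraries have fewer degrees of freedom. Where leaving out a library left 1 in a group, that library was taken to vary like the other groups.

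The replicate block alone moved no count of calls by over 1.5 times. Same-numbered libraries did not deviate together: the median correlation was -0.01 in the acute and training experiments and -0.04 in the antibody experiment. In the aged mice it was -0.65 for same-numbered and 0.65 for other pairs. With 2 libraries per group these values mirror each other by construction. Crossing the 2 pairs of aged mice, chosen after seeing the data, gave 0 calls. Ppara and Ppard, at 4 counts in their lowest library, are limited most by depth.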
